A study of Mus musculus with 10 samples.

Results

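Glycolysis and hypoxia-response genes were examined as a set of 38 genes, picked by symbol from the 55486 genes of the count table. Of these, 23 encode proteins that bring glucose in, run glycolysis, carry lactate or steer pyruvate, and 15 encode oxygen sensors and genes known to be switched on when oxygen is low. All 38 symbols were found, and where a symbol stood for more than 1 gene (Aldoa, with 2) the gene with most counts was used. The 10 libraries came from 5 collagen gels with basement membrane extract (BME), each cultured for 7 days, then dissolved and sorted by color. Normal fibroblasts (NFs) had been sorted from the mammary glands of mTmG mice aged 8 weeks, in which cells are red (Tomato) until Cre recombinase turns them green (GFP), by whether they lacked (CD26-) or carried (CD26+) the surface protein CD26. Cells of several mice were pooled per sort. Only the CD26+ NFs received an adenovirus carrying Cre, so exposure to virus and the CD26+ identity cannot be told apart. Tumor cells were the lines 13-MCB-17 and 10-SJK-221, grown from invasive lobular carcinomas (ILC) of mice whose mammary epithelium expresses Cre from the Wap promoter (WapCre) and carries floxed Cdh1 (Cdh1F/F) with a further floxed gene. Gel 1 held both NF subsets in equal parts without tumor cells (1 library each), gels 2 and 3 held 13-MCB-17 and 10-SJK-221 cells alone (1 library each), and gels 4 and 5 held both NF subsets with 13-MCB-17 and 10-SJK-221 cells, in that order (3 libraries each).

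Glycolysis splits glucose into pyruvate in a chain of steps and yields ATP without oxygen. Lactate dehydrogenase then turns pyruvate into lactate, which leaves the cell through monocarboxylate transporters, while pyruvate dehydrogenase kinase holds pyruvate dehydrogenase inactive. When oxygen is scarce, prolyl hydroxylases of the Egln family stop marking hypoxia-inducible factor (HIF) for destruction, and HIF binds a short DNA core next to genes for glucose uptake, glycolysis, vessel growth, acid handling and mitochondrial turnover. HIF is governed mainly through its protein, so the RNA of Hif1a is not a measure of its activity. Fibroblasts next to carcinoma cells have been described as able to use glycolysis and release lactate. The HIF targets include the secreted Vegfa and the collagen prolyl hydroxylases.

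Each library held between 14142334 and 18408940 counts. Levels are given in CPM, counts scaled to a common library total, and a library with 0 counts of a gene allows up to 3 counts, or 0.163 to 0.212 CPM. Epcam, an epithelial gene, had 335 to 432 CPM in tumor cells and 0 counts in both libraries of NFs alone, and Col1a1, a fibroblast collagen, had 7882 to 18556 CPM in NFs. Dpp4, which encodes CD26, was nearly absent, at 0.281 CPM in CD26+ NFs of gel 1, 0.771 in gel 4 and 0.283 in gel 5. In CD26- NFs of the same gels it had 0, 0 and 0.0575 CPM. The CD26+ value was the higher one in each gel, but at so few counts this RNA barely bears on the sort. Cdh1 had 139.9 to 269 CPM in tumor cells, and a count for the whole gene cannot tell which exons were read.

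To show where the HIF core could lie, promoters were taken from RefSeq (GRCm38.p6, 250 bases before to 50 after a start), which held 36 of the 38 genes. The letters ACGTG or GCGTG, searched on both strands with overlaps allowed, stood in 42 of 54 promoters of these genes (77.8%) against 43.8% of 32851 promoters in the table. ACGTG alone stood in 30 of the 54 (55.6%), against 19.6% of all promoters. By gene, 33 of the 36 had at least 1 promoter with either core, against 46.7% of 27025 genes. The 250 bases before the start are printed for 5 genes that were higher in co-cultured NFs and for the 3 genes that were lower there, because members of both kinds hold the core. Capitals mark ACGTG or GCGTG, or CACGT or CACGC where the core lies on the other strand, and touching cores run together. Car9 lies at chr4:43506776-43507025, plus strand. Slc16a3 lies at chr11:120948817-120949066, plus strand. Egln3 lies at chr12:54203875-54204124, minus strand. Ankrd37 lies at chr8:45999851-46000100, minus strand. Ldha, from its first start, lies at chr7:46845554-46845803, plus strand. Hk2 lies at chr6:82774455-82774704, minus strand. Hif1a lies at chr12:73907617-73907866, plus strand. Slc16a1 lies at chr3:104638414-104638663, plus strand. A match describes letters and does not show binding.
Car9: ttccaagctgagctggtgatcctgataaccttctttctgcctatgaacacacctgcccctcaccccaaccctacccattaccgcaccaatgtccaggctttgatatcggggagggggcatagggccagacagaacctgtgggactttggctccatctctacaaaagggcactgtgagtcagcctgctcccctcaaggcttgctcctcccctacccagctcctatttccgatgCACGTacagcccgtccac
Slc16a3: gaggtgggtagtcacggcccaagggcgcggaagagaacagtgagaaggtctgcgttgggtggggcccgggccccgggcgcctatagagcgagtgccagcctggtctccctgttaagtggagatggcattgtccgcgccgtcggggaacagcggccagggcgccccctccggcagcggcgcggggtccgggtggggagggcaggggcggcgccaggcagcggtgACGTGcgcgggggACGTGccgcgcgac
Egln3: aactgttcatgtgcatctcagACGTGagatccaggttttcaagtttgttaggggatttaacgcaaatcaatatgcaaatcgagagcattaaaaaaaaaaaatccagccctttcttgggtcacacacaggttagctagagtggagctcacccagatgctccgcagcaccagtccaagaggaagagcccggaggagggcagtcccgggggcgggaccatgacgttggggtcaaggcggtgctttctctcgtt
Ankrd37: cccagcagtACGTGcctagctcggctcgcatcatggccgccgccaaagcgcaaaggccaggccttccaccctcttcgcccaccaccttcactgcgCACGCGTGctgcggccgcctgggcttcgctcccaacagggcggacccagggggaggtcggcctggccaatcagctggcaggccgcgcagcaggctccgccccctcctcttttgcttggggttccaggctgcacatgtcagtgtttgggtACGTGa
Ldha: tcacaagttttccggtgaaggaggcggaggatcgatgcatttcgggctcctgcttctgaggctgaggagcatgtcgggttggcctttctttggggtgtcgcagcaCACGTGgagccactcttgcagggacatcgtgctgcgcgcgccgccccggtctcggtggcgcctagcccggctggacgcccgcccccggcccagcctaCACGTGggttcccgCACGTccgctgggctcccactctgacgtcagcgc
Hk2: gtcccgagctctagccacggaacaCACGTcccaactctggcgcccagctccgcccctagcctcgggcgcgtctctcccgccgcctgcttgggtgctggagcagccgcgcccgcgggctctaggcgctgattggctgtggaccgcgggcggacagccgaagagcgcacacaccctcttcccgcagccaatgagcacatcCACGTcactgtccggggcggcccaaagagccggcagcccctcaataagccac
Hif1a: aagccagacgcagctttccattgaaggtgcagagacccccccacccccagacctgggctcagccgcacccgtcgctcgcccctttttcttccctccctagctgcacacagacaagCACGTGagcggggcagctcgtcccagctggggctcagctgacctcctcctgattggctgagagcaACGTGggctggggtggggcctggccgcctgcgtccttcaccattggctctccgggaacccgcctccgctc
Slc16a1: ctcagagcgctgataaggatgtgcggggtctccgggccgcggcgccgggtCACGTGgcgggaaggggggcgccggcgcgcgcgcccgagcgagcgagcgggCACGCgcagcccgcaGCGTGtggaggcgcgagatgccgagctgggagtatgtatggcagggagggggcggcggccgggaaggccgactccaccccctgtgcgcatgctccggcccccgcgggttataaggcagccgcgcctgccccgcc

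First, NFs that had shared a gel with tumor cells were compared with NFs grown alone. Of the 38 genes, 33 were higher and 3 lower in co-cultured NFs at an adjusted p-value under 0.05 (edgeR quasi-likelihood test, Benjamini-Hochberg), against 25.9% of 15013 tested genes that were higher and 22.9% that were lower (48.8% in either direction). The median log2 fold change of the 38 genes was 1.89, or 3.71-fold, against 0.02 over all genes tested. In all 33 genes that rose, the 4 co-cultured libraries lay above both libraries of NFs alone, and in the 3 that fell they lay below both, as held for 26.1% and 27.8% of all genes tested. Risers came from every step from glucose uptake to lactate export and from 13 of the 15 oxygen-response genes, while the fallers were Hk2, Slc16a1 and Hif1a. Pfkm and Ddit4 did not pass the test. Only gel 1 held NFs alone, so culture and gel cannot be told apart, and in sorted bulk samples fewer cells of a kind and less RNA per cell cannot be told apart either. Nothing in the labels says that gels came from separate sorts of mice, so p-values measure the spread between these samples only.

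**Figure D1:**
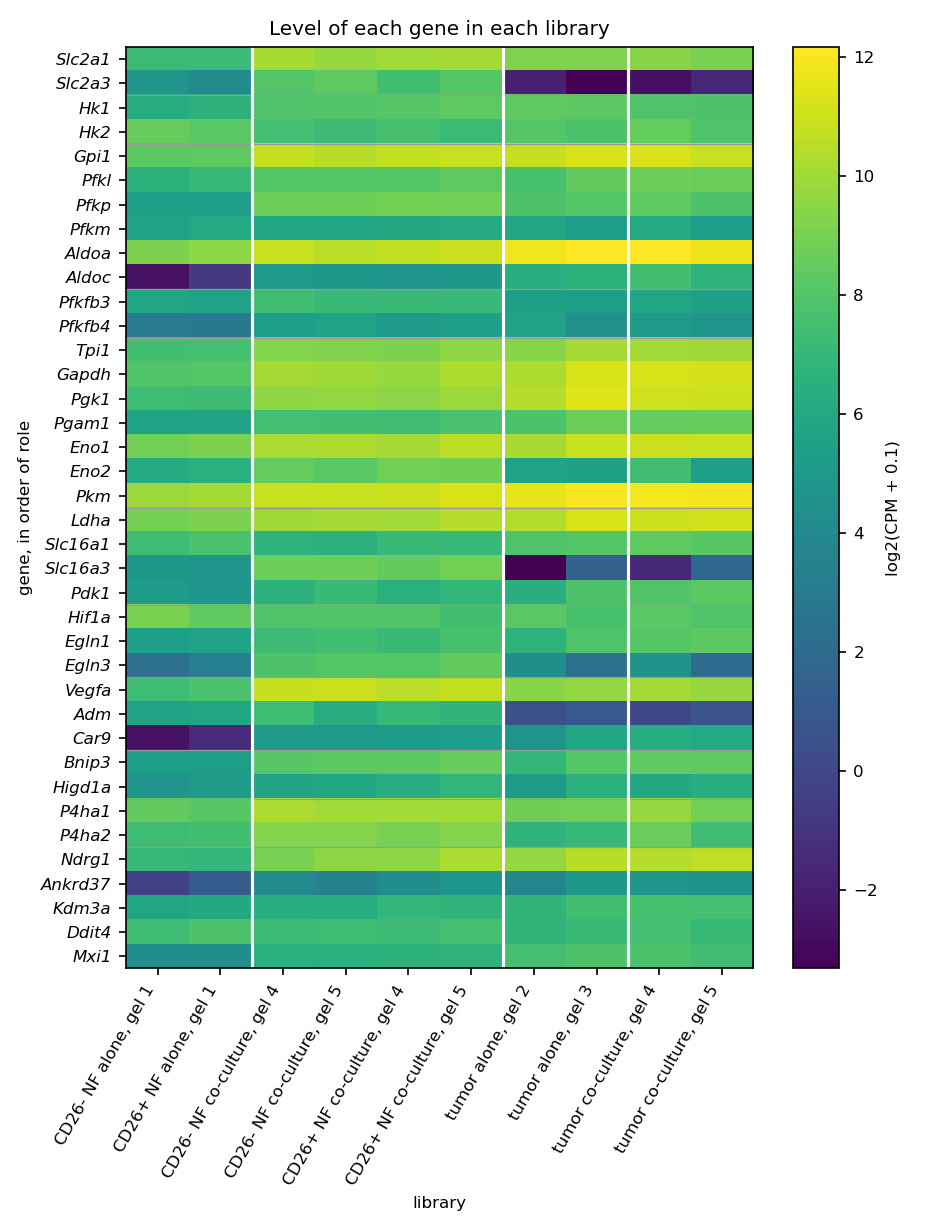
Level of each of the 38 genes (vertical axis, grouped by role) in each of the 10 libraries (horizontal axis), as log2(CPM + 0.1) by color. The 4 co-cultured NF libraries are brighter than both libraries of NFs alone for 33 genes, and Slc2a3 and Adm are dark in all 4 tumor libraries.

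Glucose enters through the Slc2a transporters. Slc2a1 (ENSMUSG00000028645, chromosome 4, 119108711 to 119137983), the widespread basal transporter GLUT1, had 148 and 153 CPM in CD26- and CD26+ NFs alone. It had 1108 (gel 4) and 857 CPM (gel 5) in CD26- NFs beside tumor cells and 1021 (gel 4) and 1097 CPM (gel 5) in CD26+ NFs. All 4 co-cultured libraries stood clear of the libraries alone, and the transporter was 6.99-fold higher (log2 fold change 2.81 ± 0.17, adjusted p = 1.94e-06, ± SE here and below). Slc2a3, a transporter with high affinity for glucose, had 26.5 and 18.5 CPM in NFs alone, against 255 (gel 4) and 319.5 CPM (gel 5) in CD26- NFs beside tumor cells and 181 (gel 4) and 270.0 CPM (gel 5) in CD26+ NFs. It rose 11.9-fold (log2 fold change 3.57 ± 0.23, adjusted p = 3.02e-06).

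Hexokinases trap glucose inside the cell, and their RNAs moved in opposite directions. Hk1, the constitutive form, had 75.4 and 100.3 CPM in NFs alone, against 243 to 315 CPM in co-culture (3.18-fold, log2 fold change 1.67 ± 0.14, adjusted p = 1.62e-05). Hk2 (ENSMUSG00000000628, chromosome 6, 82725025 to 82774454), the inducible form and a known HIF target, had 385 and 294 CPM in CD26- and CD26+ NFs alone. In co-culture it had 188 (gel 4) and 153 CPM (gel 5) in CD26- NFs and 201 (gel 4) and 149 CPM (gel 5) in CD26+ NFs. All 4 were below both libraries alone, a 1.89-fold drop (log2 fold change -0.92 ± 0.16, adjusted p = 0.00113). The summed level of both hexokinases was 394 to 461 CPM in NFs alone, against 398 to 474 CPM in co-culture, so these ranges overlapped.

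In upper glycolysis, 5 of 6 genes rose. Gpi1, the isomerase that follows hexokinase, went from 307 and 322 CPM in NFs alone to 1449 to 1827 CPM (5.5-fold). Pfkp, the platelet-type phosphofructokinase, had 41.9 and 39.2 CPM in NFs alone, against 417 (gel 4) and 433 CPM (gel 5) in CD26- NFs beside tumor cells and 486 (gel 4) and 460.5 CPM (gel 5) in CD26+ NFs. With 11.4-fold (log2 fold change 3.51 ± 0.16, adjusted p = 4.02e-07) it rose most among the phosphofructokinases, since Pfkl, the liver type, rose 2.5-fold and Pfkm, the muscle type, had a log2 fold change of 0.20 ± 0.13 (adjusted p = 0.247). Aldoa, the main aldolase, rose 2.83-fold from 562 and 736 CPM to 1524 to 1979.5 CPM.

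Aldoc, the brain-type aldolase, went from near absence to a low level. It had 1 count in CD26- NFs alone and 7 counts in CD26+ NFs alone, or 0.0621 and 0.491 CPM, and 25.8 to 33.7 CPM in co-cultured NFs. As a ratio of counts per total, co-cultured over alone, this was 520-fold in CD26- NFs (exact 95% interval 93.1 to 20559, counting error only) and 57.3-fold in CD26+ NFs (27.7 to 143). Aldoc and Car9 passed the filter on low counts through the co-cultured libraries, so that a difference was built into their passing.

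The bifunctional enzymes that make fructose-2,6-bisphosphate, the activator of phosphofructokinase, both rose. Pfkfb3 had 54.6 and 48.7 CPM in NFs alone, against 173 (gel 4) and 139 CPM (gel 5) in CD26- NFs beside tumor cells and 143 (gel 4) and 140.1 CPM (gel 5) in CD26+ NFs (2.97-fold, log2 fold change 1.57 ± 0.14, adjusted p = 1.62e-05). Pfkfb4 went from 8.2 and 7.58 CPM to 32.8 to 48.7 CPM (5.38-fold).

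All 7 genes of lower glycolysis rose, between 2.1-fold for Pkm, the pyruvate kinase, and 5.23-fold for Pgk1, the phosphoglycerate kinase. Tpi1, the triose phosphate isomerase, rose 3.55-fold and Gapdh, the glyceraldehyde phosphate dehydrogenase, 4.1-fold, from 248 and 275 CPM to 859.9 to 1219 CPM. Pgam1, the phosphoglycerate mutase, rose 3.78-fold and Eno1, the common enolase, 2.59-fold. Eno2, the enolase first known from neurons, rose 4.95-fold, from 72.2 and 89.2 CPM to 288 to 457 CPM. Gapdh, often taken as a constant reference gene, was therefore among the genes that differed by culture. Together, the 16 enzymes from hexokinase to lactate dehydrogenase took 0.411 to 0.465% of all counts in NFs alone and 1.12 to 1.42% in co-cultured NFs.

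At the end of the pathway, genes for making and exporting lactate rose and Slc16a1 fell. Ldha, the lactate dehydrogenase subunit that favors lactate, had 494 and 547 CPM in NFs alone, against 982 (gel 4) and 1066 CPM (gel 5) in CD26- NFs beside tumor cells and 1019 (gel 4) and 1399 CPM (gel 5) in CD26+ NFs (2.22-fold, log2 fold change 1.15 ± 0.18, adjusted p = 0.000655). Slc16a3 (ENSMUSG00000025161, chromosome 11, 120948480 to 120960868), the exporter MCT4, had 29.9 and 26.6 CPM in CD26- and CD26+ NFs alone. In co-culture it had 436 (gel 4) and 429 CPM (gel 5) in CD26- NFs and 353 (gel 4) and 484 CPM (gel 5) in CD26+ NFs, a 15.6-fold rise (log2 fold change 3.96 ± 0.20, adjusted p = 7.55e-07). Slc16a1, the transporter MCT1, which can carry lactate either way and is known from cells that take it up, had 161 and 211 CPM in NFs alone, against 97.1 to 142 CPM in co-culture, 1.51-fold lower (log2 fold change -0.59 ± 0.11, adjusted p = 0.00217). Pdk1, the kinase that holds pyruvate dehydrogenase inactive, had 36.7 and 27.5 CPM in NFs alone, against 99.9 (gel 4) and 141 CPM (gel 5) in CD26- NFs beside tumor cells and 89.9 (gel 4) and 121 CPM (gel 5) in CD26+ NFs (3.68-fold, log2 fold change 1.88 ± 0.21, adjusted p = 8.17e-05).

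Among the oxygen sensors, the hydroxylases rose and Hif1a fell. Hif1a (ENSMUSG00000021109, chromosome 12, 73901375 to 73947530), the oxygen-labile subunit of HIF, had 534 and 340.1 CPM in CD26- and CD26+ NFs alone, against 234 (gel 4) and 249.7 CPM (gel 5) in CD26- NFs beside tumor cells and 249.1 (gel 4) and 178 CPM (gel 5) in CD26+ NFs. All 4 co-cultured values were below both values alone (1.82-fold lower, log2 fold change -0.87 ± 0.17, adjusted p = 0.0021). Egln3 (ENSMUSG00000035105, chromosome 12, 54178981 to 54203860), a prolyl hydroxylase that is itself a HIF target, had 4.84 and 10.3 CPM in NFs alone, against 224 (gel 4) and 258 CPM (gel 5) in CD26- NFs beside tumor cells and 263 (gel 4) and 343 CPM (gel 5) in CD26+ NFs. This 38.5-fold rise (log2 fold change 5.27 ± 0.26, adjusted p = 7.9e-07) was the third largest of the set, after Car9 and Aldoc. Egln1, the main hydroxylase of HIF in most cells, rose 3.75-fold, from 42.6 and 51.6 CPM to 145 to 201 CPM.

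All 3 secreted and surface targets rose. Vegfa, the vessel growth factor, had 162 and 214 CPM in NFs alone, against 1805 (gel 4) and 1910.0 CPM (gel 5) in CD26- NFs beside tumor cells and 1497 (gel 4) and 1752 CPM (gel 5) in CD26+ NFs (9.57-fold, log2 fold change 3.26 ± 0.22, adjusted p = 3.61e-06). Adm, the vessel-widening peptide adrenomedullin, had 52.3 and 60.1 CPM in NFs alone, against 81.1 to 164 CPM in co-culture (2.25-fold, log2 fold change 1.17 ± 0.24, adjusted p = 0.00301). Car9 (ENSMUSG00000028463, chromosome 4, 43506966 to 43513729), a surface carbonic anhydrase that handles acid and a common marker of hypoxia, had 0.0621 and 0.281 CPM in NFs alone, which were 1 and 4 counts. In co-culture it had 32.4 (gel 4) and 32.8 CPM (gel 5) in CD26- NFs and 34.6 (gel 4) and 41.4 CPM (gel 5) in CD26+ NFs. Its ratio of counts per total was 525-fold in CD26- NFs (exact 95% interval 94.1 to 20765) and 135-fold in CD26+ NFs (52.5 to 495).

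Inside the cell, the mitochondrial targets, the collagen prolyl hydroxylases and 4 of 5 other targets rose. Bnip3, a receptor for the removal of mitochondria, rose 8.12-fold from 40.6 and 40.5 CPM, and Higd1a, a respiratory chain protein, 2.49-fold. P4ha1 and P4ha2, the catalytic subunits that hydroxylate collagen, rose 3.55-fold and 3.62-fold. Ankrd37, a small target of unsettled function, had 0.683 and 1.97 CPM in NFs alone, against 15.9 (gel 4) and 11.8 CPM (gel 5) in CD26- NFs beside tumor cells and 18.9 (gel 4) and 28.5 CPM (gel 5) in CD26+ NFs (15.1-fold, log2 fold change 3.92 ± 0.32, adjusted p = 1.15e-05), although 26.4% of its exon length overlaps other genes and the use of strand in counting was not given. Ndrg1, a stress-response gene, had 128 and 119 CPM in NFs alone, against 536 (gel 4) and 739 CPM (gel 5) in CD26- NFs beside tumor cells and 739 (gel 4) and 1206 CPM (gel 5) in CD26+ NFs (6.55-fold, log2 fold change 2.71 ± 0.29, adjusted p = 5.6e-05). Mxi1, a repressor that opposes Myc, rose 4.99-fold and Kdm3a, a histone demethylase, 1.64-fold. Ddit4, an inhibitor of mTOR signaling, had 160.1 and 229.9 CPM in NFs alone, against 153 to 195 CPM in co-culture (log2 fold change -0.16 ± 0.15, adjusted p = 0.391).

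**Figure D2:**
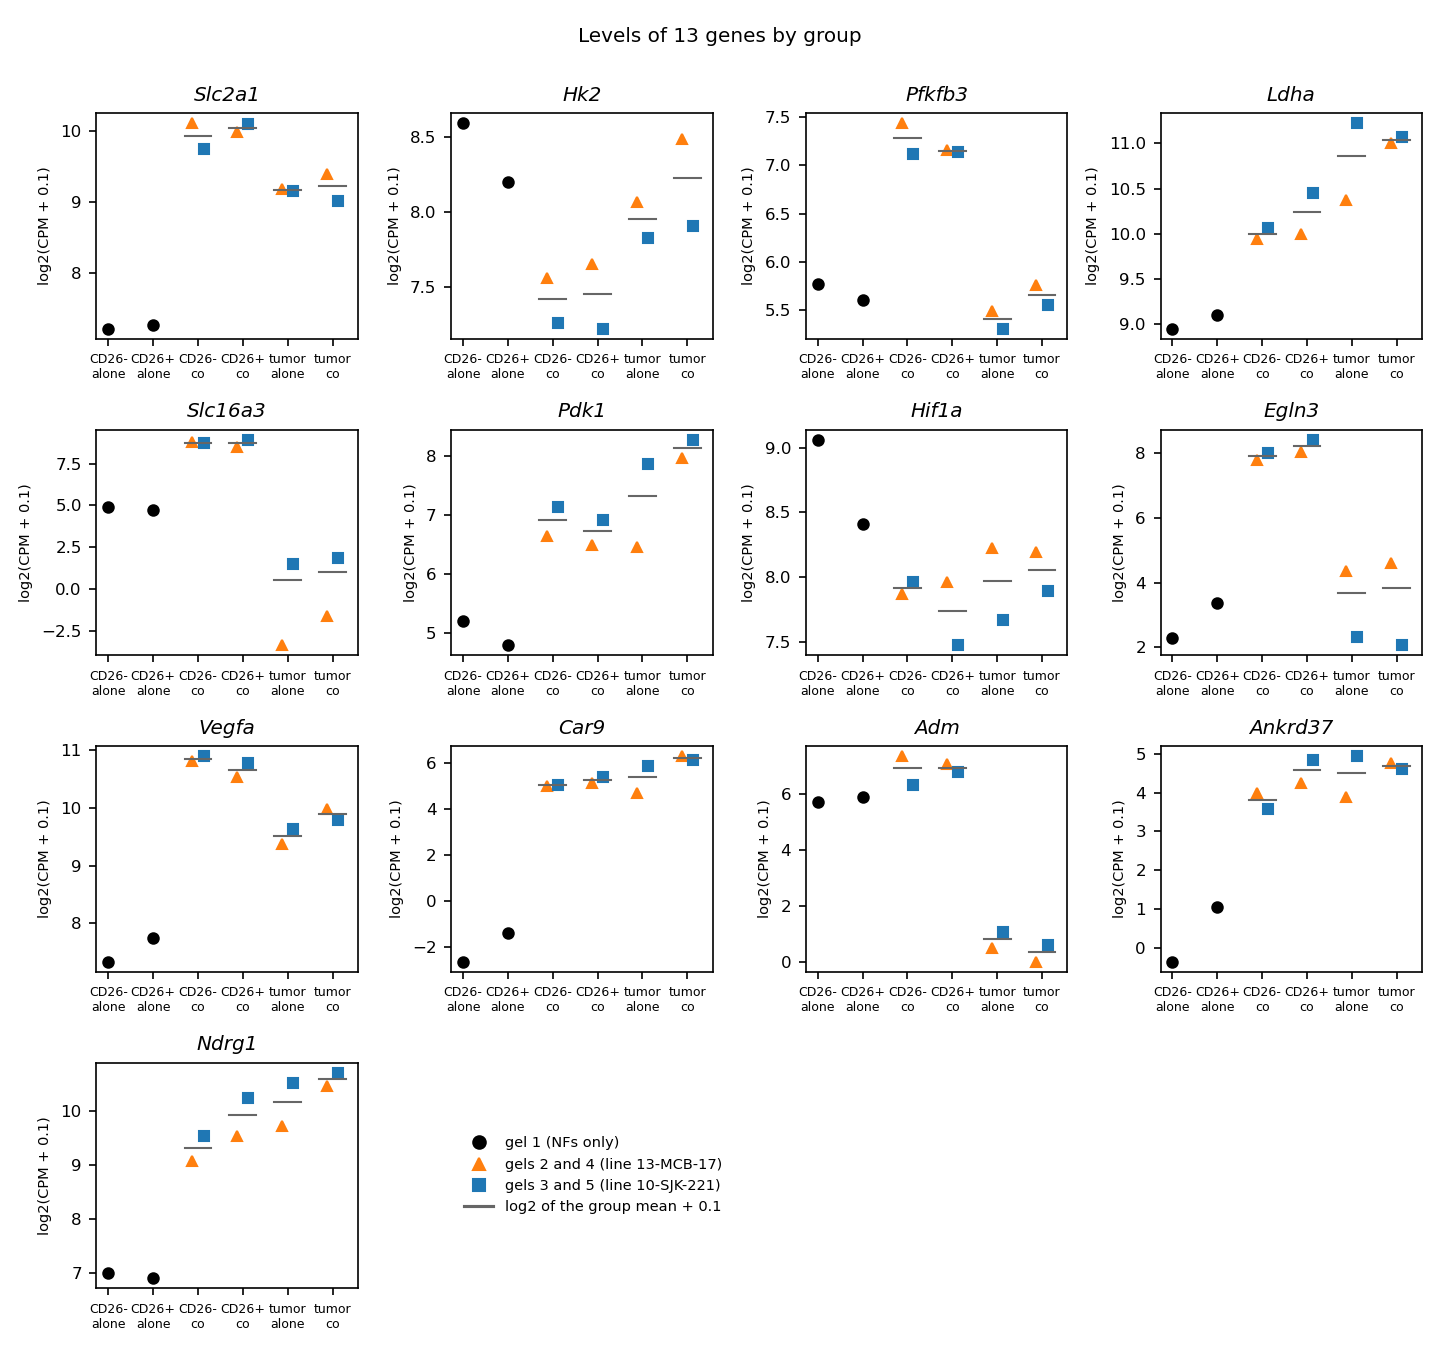
Levels of 13 genes as log2(CPM + 0.1) (vertical axis) in the 6 groups (horizontal axis), 1 point per library, with shape and color for the tumor line of the gel and a line at the log2 of the group mean. Hk2 and Hif1a are lower in all 4 co-cultured NF libraries than in NFs alone, the other 11 genes are higher, and Car9 and Ankrd37 move from under 2 CPM to near the levels of tumor cells.

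Epithelial markers moved with culture in the NF libraries. The summed level of 10 epithelial markers was 0.807 and 1.12 CPM in NFs alone, where 6 of the 10 were at 0 in both libraries. It was 121 to 149 CPM in co-cultured CD26- NFs, 181 to 329 CPM in co-cultured CD26+ NFs and 4361 to 5745 CPM in tumor cells. Relative to the tumor cells of the same gel, these were 2.68% (CD26-) and 3.99% (CD26+) in gel 4 and 2.83% and 6.24% in gel 5. If this share of the tumor level of each gene is taken as carried over, it came to a median of 6.44% of the rise over the 33 risers and 4 libraries, with 94 of 132 values under 10% and the highest, 29.7%, for Kdm3a in CD26+ NFs of gel 5. Slc2a3, Slc16a3, Adm and Egln3 were far lower in tumor cells than in co-cultured NFs. Summed fibroblast markers were 71451 to 76667 CPM in NFs alone, 42719 to 47824 CPM in co-cultured CD26- NFs and 25320.4 to 31707 CPM in co-cultured CD26+ NFs. Collagens dominated this sum, with Col3a1 at 35673 and 34521 CPM alone and 5484 to 13081 CPM in co-culture. Col1a1, Col1a2, Pdgfra and Lum were lower in co-culture too. Postn, Thy1 and Dcn were higher in co-culture within both subsets, and Fap and Pdgfrb had no shared direction. Leukocyte markers came to 5.53 to 9.33 CPM in NFs alone, against 31.8 to 63.5 CPM in co-culture. Cd68 made up most of the sums in co-culture (19.6 to 53.5 CPM). Csf1r went from 1.86 and 2.81 CPM alone to 7.42 to 13.5 CPM, and Ptprc had at most 0.0621 CPM in any NF library. Tumor libraries held 48.1 to 301 CPM of these leukocyte markers. Endothelial markers (4 genes) came to 1.12 and 4.91 CPM in NFs alone, and to 8.0 to 22.9 CPM when tumor cells were present. The part of these lists in the culture difference was not tested.

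The culture difference was then taken within each subset, in 1 fit of the 6 NF libraries as 4 groups, so that both subsets share 1 estimate of the spread. In CD26- NFs, 33 of the 38 genes rose and 3 fell in co-culture, with a median log2 fold change of 1.96, against 16.6% higher and 14.1% lower (30.8% in all) of 16231 genes. In CD26+ NFs, 33 rose and 3 fell as well, with a median of 1.92, against 19% higher and 15.2% lower (34.2% in all). Hk2, Hif1a and Slc16a1 were the fallers in both subsets. On the log2 scale Hk2 changed by -1.11 in CD26- NFs (adjusted p = 0.00161), and its change in CD26+ NFs was -0.71 (adjusted p = 0.0244). Both differences use gel 1 as the only control, with 1 library per subset. The interaction of subset and culture, which tests whether the response differed, passed for 0 of the 38 genes with edgeR and with DESeq2, against 0.376% of 16231 genes and, with DESeq2, 0.695% of 14102. At an unadjusted p under 0.05, which 7.79% of all genes had, it found 1 gene, Aldoc (log2 difference -3.06 ± 1.06, CD26+ minus CD26-, adjusted p = 0.414), on the 1 and 7 counts given above.

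Next, the subsets were compared over gels 1, 4 and 5. None of the 38 genes differed between CD26+ and CD26- NFs at an adjusted p under 0.05 with edgeR, against 7.53% of 15013 genes (3.93% higher and 3.6% lower). At an unadjusted p under 0.05 there were 9 (3 higher and 6 lower in CD26+ NFs, against 12.4% and 12.6% of all genes), and DESeq2 called 3 genes, all lower, against 5.68% of 15163 genes. The median log2 fold change was -0.03, against 0.00 over all genes. By gel, the TMM-scaled medians were 0.02 in gel 1, -0.18 in gel 4 and 0.13 in gel 5, so the direction of the set was not shared by the gels. Fitted log2 fold changes of the 38 genes spanned -0.56 to 0.74.

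After TMM scaling, which evens out RNA composition between libraries, 14 genes kept 1 direction in all 3 gels, 6 higher and 8 lower in CD26+ NFs, against 22.8% and 24% of all genes tested. In unscaled CPM 18 genes did, 14 higher and 4 lower, against 36.4% and 12.6% of all genes, so that the tally turned with the scaling. Of the 14 genes 10 were among these 18, and Hif1a, Hk2, Pfkfb3 and P4ha2 each turned in 1 gel. After TMM scaling the lower ones were Slc2a3 (-0.56 ± 0.18, adjusted p = 0.0927), Hif1a (-0.49 ± 0.16, adjusted p = 0.0927), Pdk1, Pfkfb4, P4ha1, Pfkfb3, Hk2 and P4ha2. Within gels, Hif1a had TMM-scaled log2 ratios of -0.77, -0.08 and -0.66 in gels 1, 4 and 5, and in unscaled CPM these were -0.65, 0.090 and -0.49, so that the sign in gel 4 depended on the scaling. Higher in CD26+ NFs were Ankrd37 (0.74 ± 0.24, adjusted p = 0.0937), Higd1a (0.52 ± 0.18, adjusted p = 0.106), Egln3, Slc16a1, Eno2 and Kdm3a. None of these passed with edgeR, and the DESeq2 calls were Slc2a3 (adjusted p = 0.0475), Hif1a (adjusted p = 0.0353) and P4ha1 (adjusted p = 0.0321). Without gel 4, 2 genes passed in edgeR (9.11% of all genes did), Hif1a (-0.71, adjusted p = 0.0247) and Ankrd37 (1.18, adjusted p = 0.0296). With gel as a block, 2 passed (8.87% of all genes did), Slc2a3 (-0.57, adjusted p = 0.0251) and Higd1a (0.50, adjusted p = 0.0469).

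Tumor cells that had shared a gel with NFs were compared with tumor cells alone, with the line as a term. Slc2a3 was too low to test, and 6 of the 37 genes tested rose and 1 fell, against 10.8% higher and 11.5% lower (22.3% in all) of 13197 genes. The median log2 fold change was 0.25, against 0.01 over all genes. P4ha2 had 108 and 127 CPM in 13-MCB-17 and 10-SJK-221 cells alone and 414 and 162 CPM in the same lines in co-culture (2.18-fold, log2 fold change 1.13 ± 0.30, adjusted p = 0.0297). Pdk1 had 87.7 and 232 CPM alone and 250.2 and 311 CPM in co-culture (1.91-fold, log2 fold change 0.94 ± 0.22, adjusted p = 0.0163). In both genes the rise was smaller in 10-SJK-221 cells. Car9 had 26.1 and 58.5 CPM alone and 78.4 and 70.4 CPM in co-culture (1.85-fold, adjusted p = 0.0365). Egln1 rose 1.81-fold (adjusted p = 0.0202), Bnip3 1.79-fold (adjusted p = 0.0384) and Pfkl 1.56-fold (adjusted p = 0.044). Hk1 was the gene that fell, from 316 and 305 CPM alone to 243 and 231 CPM (1.34-fold lower, adjusted p = 0.0232). These calls moved with the fit and with single libraries. In a fit of all 10 libraries 5 genes passed in edgeR, against 10.7% of all genes. In that fit 0 passed without 13-MCB-17 cells alone or without co-cultured 13-MCB-17 cells (2.46% and 2.39% of all genes), and 8 without 10-SJK-221 cells alone or in co-culture (5.99% and 5.97%). DESeq2 called 2 genes, against 11.6% of 13306, and 17 passed in edgeR with no filter beyond 1 count, against 15.8% of 24015. Marker sums moved with culture in these libraries as well. Leukocyte markers (4 genes) had 301 and 101 CPM in 13-MCB-17 and 10-SJK-221 cells alone, against 92.7 and 48.1 CPM in co-culture. Cd68 made up most of these sums (299 and 93.1 CPM alone, 80.5 and 34.8 CPM in co-culture). Csf1r rose instead, from 1.79 and 7.25 CPM to 11.6 and 12.9 CPM, and Ptprc had at most 0.127 CPM. Fibroblast markers (10 genes) had 71.9 and 39.3 CPM alone, against 209 and 129 CPM in co-culture. The part of both lists in these calls was not tested.

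Many genes with a large change in NFs had a small one in tumor cells. Slc2a1 had 582 and 573 CPM in tumor cells alone, against 676 and 518 CPM in co-culture (log2 fold change 0.01 ± 0.13, adjusted p = 0.967). Vegfa had 667 and 797 CPM alone and 1015 and 889.6 CPM in co-culture (0.36 ± 0.14, adjusted p = 0.108). Hif1a had 299 and 204 CPM alone and 293 and 238 CPM in co-culture (0.07 ± 0.11, adjusted p = 0.706). The lines often differed in direction. The ratio of co-culture to alone was positive in both lines for 15 genes, negative in both for 2 and opposite for 21. It was larger in 13-MCB-17 than in 10-SJK-221 cells for 32 of 38 genes, with medians of 0.60 and -0.02 on the log2 scale. Over 13194 of the genes tested, both lines were positive for 38.9%, both negative for 36% and opposite for 25.1%, the ratio was larger in 13-MCB-17 cells for 48.8%, and the medians were 0.014 and 0.012. Eno2 was the sharpest case with usable counts, at 51.2 and 46.1 CPM alone and 168 and 43.5 CPM in co-culture.

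The difference between the lines in this response was tested after the values by line had been seen, in the fit of 10 libraries, where each line has 1 gel per condition and the spread comes from the co-cultured NF libraries alone, with no tumor library adding to it. With edgeR 0 of 38 genes passed, against 0.0176% of 17048 genes (0.0117% higher and 0.00587% lower). At an unadjusted p under 0.05 there were 18 genes, 1 with the larger and 17 with the smaller response in 10-SJK-221 cells, against 1.37% of all genes in each direction, and DESeq2 called 2, against 0.169% of 10043 genes. Since the pattern was seen first and each arm is 1 tumor library, these counts describe the libraries. Eno2 had a log2 difference of -1.76 ± 0.36 (10-SJK-221 minus 13-MCB-17, adjusted p = 0.208).

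**Figure D3:**
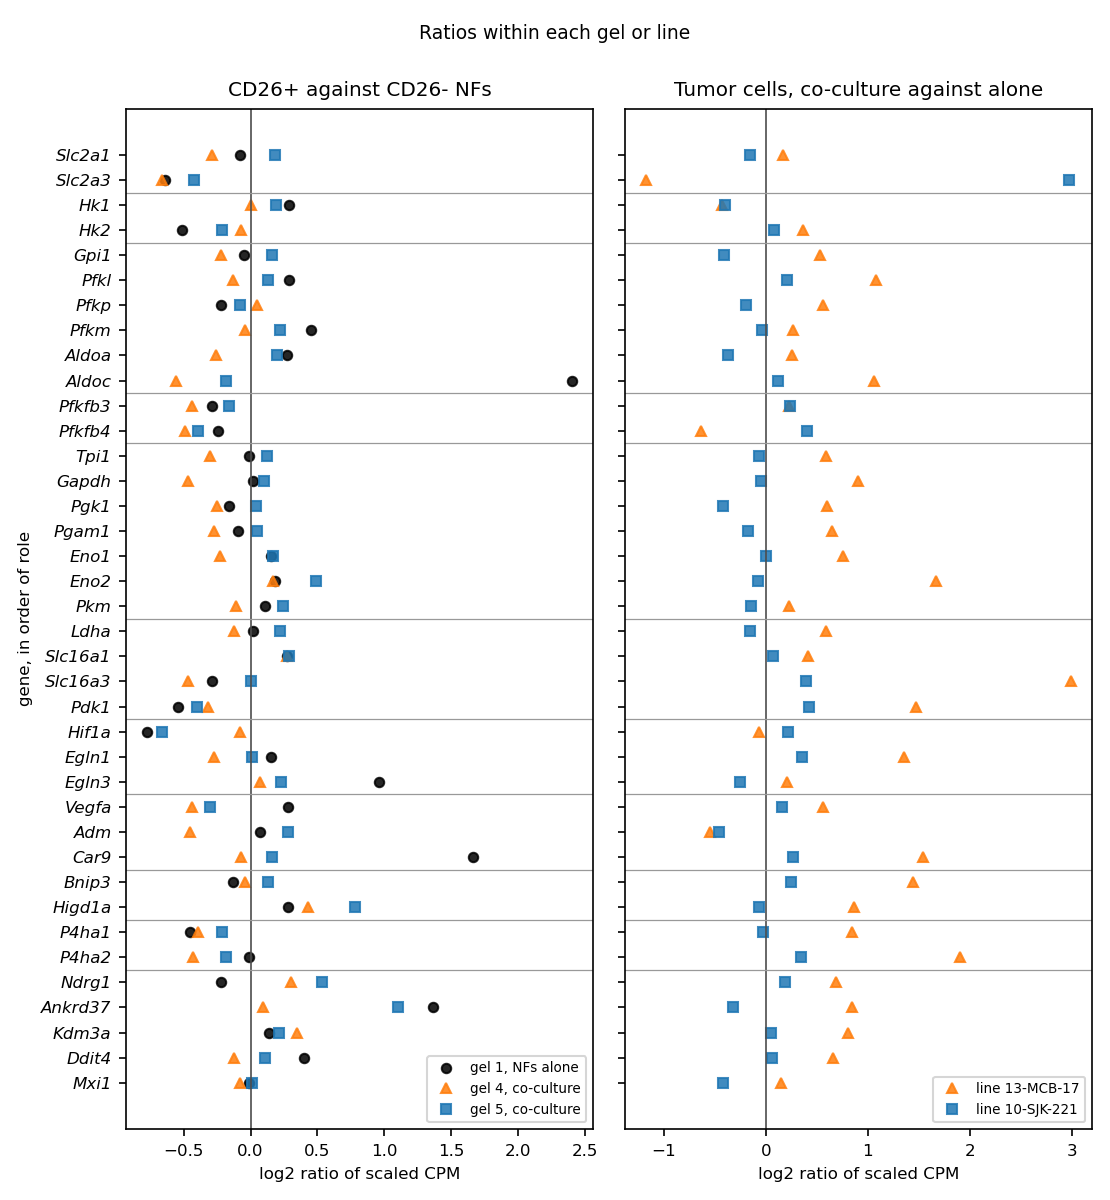
TMM-scaled log2 ratios within each gel or line (horizontal axis) for the 38 genes (vertical axis), CD26+ against CD26- NFs in 3 gels (left) and co-cultured tumor cells against tumor cells alone in 2 lines (right). On the left the points scatter around 0, with per-gel medians of 0.02, -0.18 and 0.13. On the right, 13-MCB-17 lies to the right of 10-SJK-221 for 32 of 38 genes (Slc2a3 in tumor cells rests on 0 to 4 counts and Slc16a3 in 13-MCB-17 cells on 0 and 4).

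Between the lines, over both cultures, 3 genes were higher and 5 lower in 10-SJK-221 than in 13-MCB-17 cells, against 5.93% and 8.54% of 13197 genes (14.5% in all). Egln3 had 20.4 and 24.3 CPM in 13-MCB-17 cells (alone, co-culture) and 4.9 and 4.11 CPM in 10-SJK-221 cells (5.23-fold lower, log2 fold change -2.39 ± 0.19, adjusted p = 0.000222). Slc16a3 had 0 and 4 counts in 13-MCB-17 cells and 43 and 63 counts in 10-SJK-221 cells, a ratio of 28.8 (exact 95% interval 10.9 to 108). It passed the filter on low counts through the 10-SJK-221 libraries alone, so that a difference was built into its passing. Higd1a (0.80) and Pdk1 (0.78) were also higher in 10-SJK-221 cells, and Pfkfb4 (-0.89), Pfkm (-0.84), Hif1a (-0.50) and Hk2 (-0.49) were lower, on the log2 scale. The fit of 10 libraries gave 3 calls, against 6.25% of all genes, and in that fit 5 passed without 13-MCB-17 or 10-SJK-221 cells alone (2.4% and 2.37% of all genes). With no filter beyond 1 count 20 passed, against 12.1% of 24015 genes. The median log2 ratio of the set was 0.25 with the lines alone and -0.18 in co-culture, so its sign turned between cultures. Each line gave 1 gel per condition, so that these are not independent tumors.

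Next, NFs were compared with tumor cells. With both grown alone, 24 of the 38 genes were lower and 6 higher in NFs, against 21.3% lower and 25.9% higher (47.2% in all) of 14404 genes, and the median log2 fold change was -1.68. The NF subsets, from the same gel, and the tumor lines stood in for replicates here, with no term for subset or line. These p-values thus measure the spread between subsets and between lines, not between repeats of a condition. Pgk1 had 161 and 157 CPM in NFs alone, against 1372 and 2732 CPM in tumor cells alone (11.4-fold lower in NFs, log2 fold change -3.52 ± 0.38, adjusted p = 0.00104). Gapdh was 6.18-fold lower, Mxi1 9.23-fold, Ndrg1 8.28-fold, Ankrd37 15.3-fold, Vegfa 3.49-fold and Slc2a1 3.43-fold. Glycolytic enzymes from hexokinase to lactate dehydrogenase took 1.59 to 2.34% of counts in tumor cells alone, several times the 0.411 to 0.465% in NFs alone.

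Genes higher in NFs alone than in tumor cells alone were Slc2a3, Adm, Slc16a3, Eno2, Ddit4 and P4ha2. Slc2a3 had 3 and 0 counts in 13-MCB-17 and 10-SJK-221 cells alone against 691 counts in NFs alone, a ratio of 259 (exact 95% interval 88.2 to 1259). Slc2a3 passed the filter through the NF libraries alone here and in the shared gels, so that a difference was built in there too. Slc16a3, with 0 and 43 counts in lone tumor cells and 4 and 63 in those of shared gels, also needed the NF libraries to pass it. With both alone, Aldoc and Car9, both lower in NFs, passed it through the tumor libraries alone. Adm had 1.3 and 1.97 CPM in lone tumor cells and was 38.5-fold higher in NFs (log2 fold change 5.27 ± 0.29, adjusted p = 0.000117). Slc16a3 in NFs alone was 10.4-fold above 10-SJK-221 cells alone (exact 95% interval 7.63 to 14.4), and at least 163-fold higher in each NF library alone than in 13-MCB-17 cells, which had 0 counts against a floor of 3. Leaving out CD26+ NFs alone lowered the number of members called from 30 to 18, and the share of all genes from 47.2% to 31.4%.

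In the gels that NFs and tumor cells shared, 13 of the 38 genes were higher and 17 lower in NFs, against 31% higher and 26.5% lower (57.5% in all) of 15098 genes. The median log2 fold change was -0.26. Slc2a3 had 5 counts in the co-cultured tumor libraries together, a ratio of NFs to tumor cells of 1816 (exact 95% interval 778 to 5594). Slc16a3 had 4 counts in the tumor cells of gel 4, a ratio of 1749 (683 to 6420), and 63 in those of gel 5, a ratio of 126 (98.6 to 164). Adm was also higher in NFs (log2 fold change 6.91 ± 0.39). So were Egln3 (21.9-fold, adjusted p = 0.000556), Eno2 (4.19-fold), Pfkfb3 (3.39-fold), P4ha2 (2.4-fold), Vegfa (2.11-fold), Slc2a1 (1.97-fold), P4ha1, Pfkp, Pfkfb4 and Hk1. Vegfa and Slc2a1 were thus lower in NFs than in tumor cells when both were alone and higher when they shared a gel. Lower in NFs were Aldoc (4.06-fold), Pgk1 (2.25-fold), Slc16a1 (2.19-fold), Pdk1, Aldoa, Gapdh, Car9 (1.83-fold), Kdm3a, Mxi1, Pgam1, Ndrg1, Ldha, Pkm, Hk2, Egln1, Tpi1 and Pfkl. The lactate transporters thus stood on opposite sides, with Slc16a3 high in NFs and Slc16a1 at 319.8 and 277 CPM in co-cultured tumor cells against 97.1 to 142 CPM in co-cultured NFs.

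**Figure D4:**
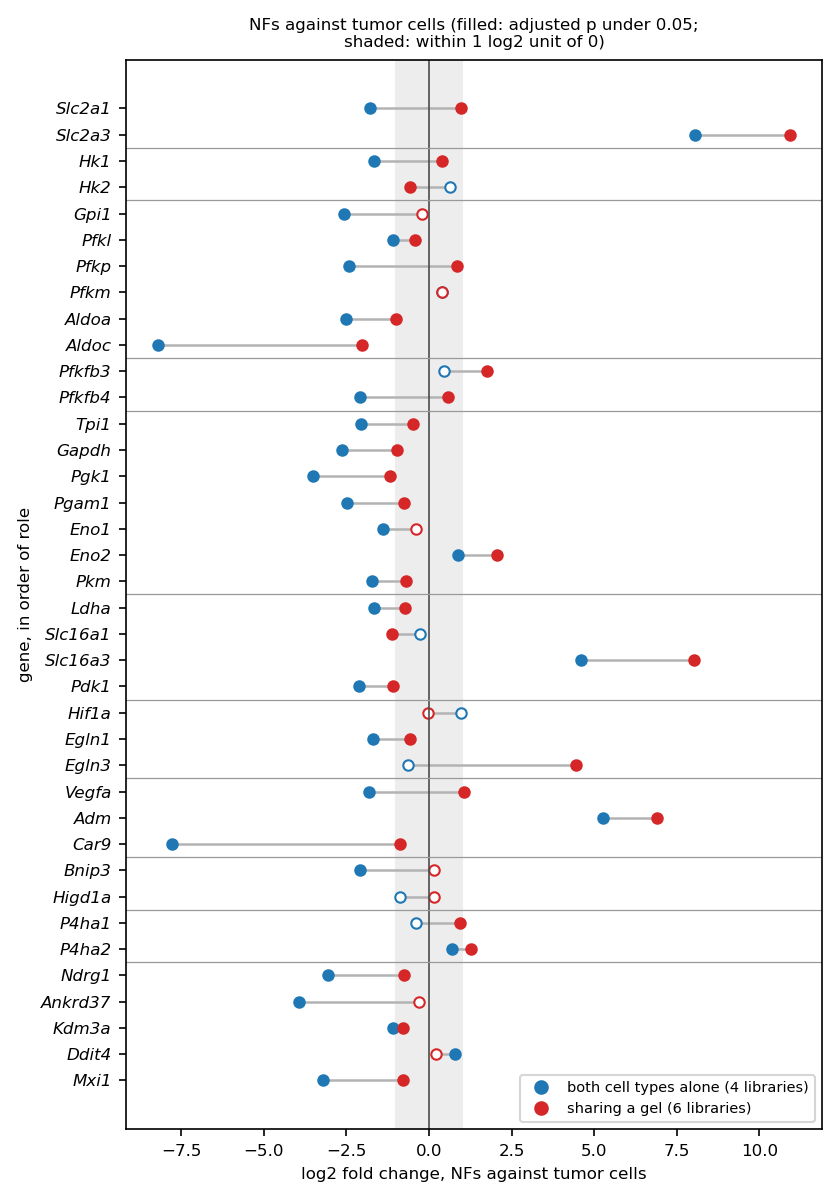
Fitted log2 fold change of NFs against tumor cells (horizontal axis) for the 38 genes (vertical axis), with both cell types alone (blue) and sharing a gel (red). Filled points passed the test, and the shaded band is within 1 log2 unit of 0. Most blue points lie left of the band and many red points within it, while Slc2a3, Slc16a3, Adm and Egln3 lie far to the right in shared gels.

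Levels of the set in NFs and tumor cells stood closer together in co-culture. With group means compared on a log2(CPM + 0.1) scale, 10 of 38 genes (26.3%) were within 2-fold when both cell types were alone and 24 of 38 (63.2%) in co-culture. Among 13490 genes with a mean of at least 1 CPM these shares were 55.1% and 61.8%. The median absolute log2 difference went from 1.95 to 0.91 in the set and from 0.85 to 0.73 over those genes. These shares are a description without a test.

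The difference of the culture response between cell types was tested in 1 fit of 10 libraries. For 27 of the 38 genes the response was higher in NFs and for 3 lower, against 16.9% and 13.8% of 17048 genes (30.8% in all), with a median difference of 1.59 against 0.05 over all genes. Slc2a1 differed by 2.79 ± 0.23 on the log2 scale (adjusted p = 5.77e-06), Vegfa by 2.91 ± 0.24 (adjusted p = 5.9e-06) and Egln3 by 5.27 ± 0.30 (adjusted p = 4.32e-07). Hk2, Hif1a and Slc16a1 had the lower response in NFs (-1.15, -0.94 and -0.84). For Ddit4, Pfkm, Kdm3a, Pfkl, P4ha2, Higd1a, Pdk1 and Slc2a3 the difference did not pass the test.

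**Figure D5:**
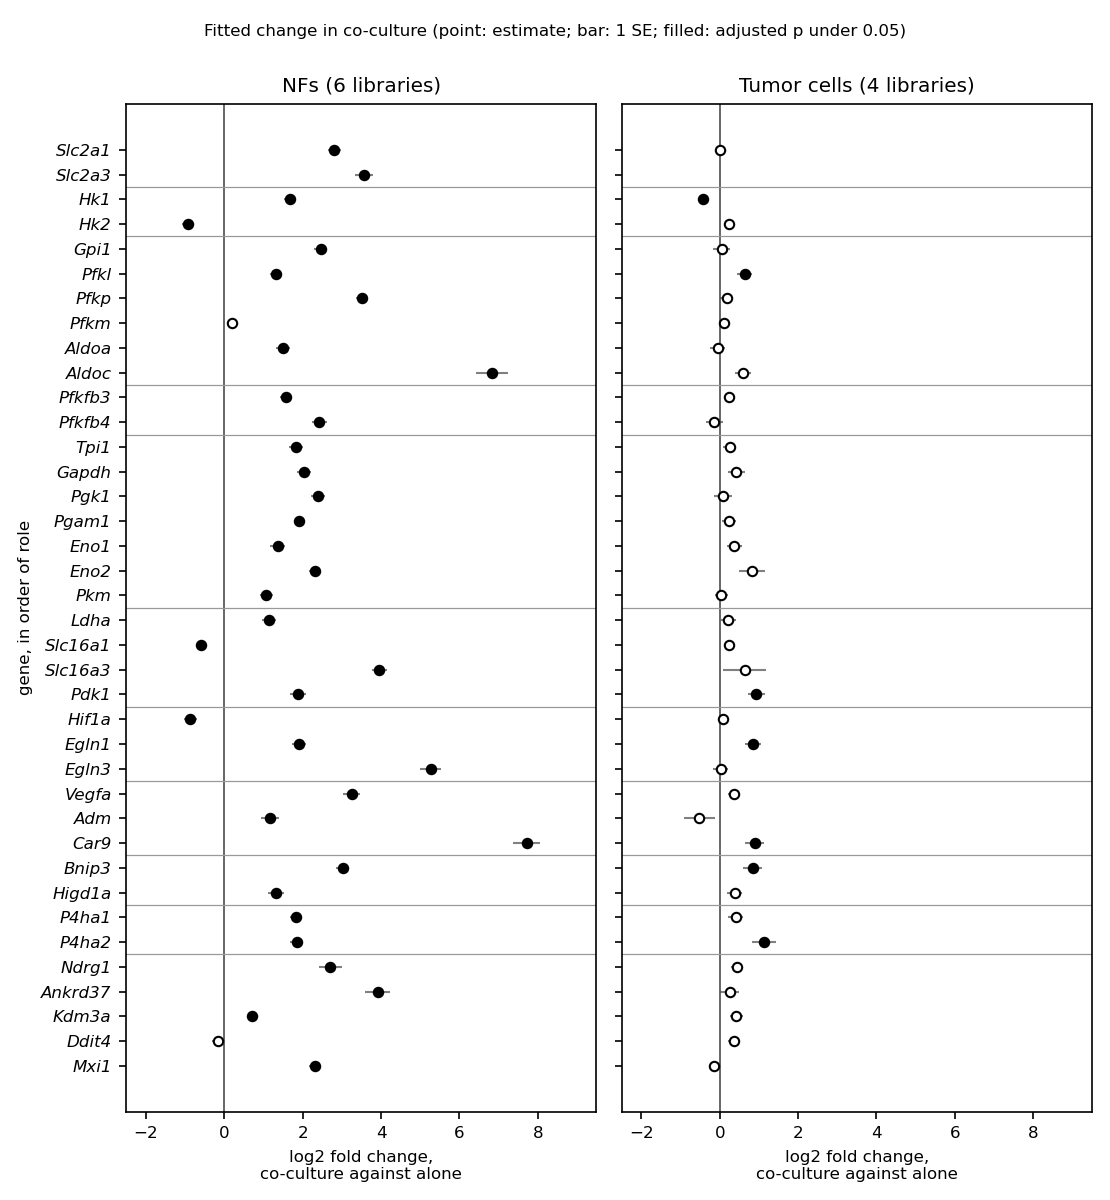
Fitted log2 fold change of co-culture against alone (horizontal axis) for each gene (vertical axis) in NFs (left) and tumor cells (right), with bars of 1 SE and filled points for adjusted p under 0.05. In NFs 33 filled points lie to the right of 0 and 3 to the left, and in tumor cells 6 and 1 (Slc2a3 is left out there, since it was not tested).

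Isozymes were compared by their levels in CPM per kilobase of exon, as ratios without a test. Hk1 stood at 0.137 and 0.239 times the level of Hk2 in CD26- and CD26+ NFs alone and at 0.903 to 1.48 times in co-cultured NFs, so Hk2 prevailed in NFs alone and the pair was nearly even in co-culture. In tumor cells this ratio was 0.474 to 0.942. Slc16a1 stood at 6.44 and 9.52 times Slc16a3 in NFs alone and at 0.272 to 0.482 times in co-cultured NFs, so that the order of the lactate transporters turned. In 10-SJK-221 tumor cells Slc16a1 was 116 times (alone) and 92.5 times (co-culture) Slc16a3.

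The order of the oxygen-sensing hydroxylases turned too. Egln1 was 6.51 and 3.7 times Egln3 in NFs alone, against 0.408 to 0.516 times in co-culture. In tumor cells Egln1 prevailed in every library, by 3.68 to 56.1 times. Slc2a1 exceeded Slc2a3 in every NF library, by 5.54 to 17 times, and Eno1 exceeded Eno2 by 2.1 to 5.56 times in NFs and 10.1 to 38 times in tumor cells. Pfkp stood at 0.15 and 0.212 times Pfkl in NFs alone and at 0.732 to 0.903 times in co-cultured NFs. Pfkfb3 exceeded Pfkfb4 in all 6 NF libraries (1.83 to 4.3 times), and P4ha1 exceeded P4ha2 in all 10 libraries (2.38 to 6.22 times). Aldoa exceeded Aldoc at least 28.9 times in every library.

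A further list of 46 genes of the same pathways, outside the set, was counted in the same fits. In co-cultured against lone NFs, 39 of them could be tested, and 21 rose and 10 fell, beside 25.9% and 22.9% of all genes tested. By kind, 12 of 15 further hypoxia targets rose and 1 fell, 6 of 18 tested genes of glycolysis and pyruvate use rose and 8 fell, and 3 of 6 HIF regulators rose and 1 fell. Ero1l, an oxidase of protein folding, had 37.7 and 37.1 CPM in NFs alone, against 1494 (gel 4) and 1915 CPM (gel 5) in CD26- NFs beside tumor cells and 1404 (gel 4) and 1481 CPM (gel 5) in CD26+ NFs (log2 fold change 5.44 ± 0.23). Stc2, the secreted stanniocalcin, had 6.33 and 4.91 CPM in NFs alone, 73.2 to 90.4 CPM in co-cultured NFs and 0 counts in all 4 tumor libraries. Car12, another surface carbonic anhydrase, rose by 5.04 and Gbe1, the glycogen branching enzyme, by 3.05. Among the genes that fell, Ldhb, the lactate dehydrogenase subunit that favors pyruvate, had 43.4 and 80.7 CPM in NFs alone, against 11.9 to 16.1 CPM in co-culture (-2.07 ± 0.15). Pdk4, a kinase of pyruvate dehydrogenase that is induced by fasting, fell (-3.29 ± 0.56), opposite to Pdk1. It had 62.8 CPM alone and 2.18 (gel 4) and 2.30 CPM (gel 5) in co-culture in CD26- NFs. In CD26+ NFs it had 23.5 CPM alone and 10.1 (gel 4) and 4.88 CPM (gel 5) in co-culture. The interaction of subset and culture passed for 1 of 40 tested genes of this list, with the higher response in CD26+ NFs, beside 0.376% of all genes tested.

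Between the subsets, 39 genes of this list were tested. In edgeR 4 were higher in CD26+ NFs and 1 was lower, beside 3.93% and 3.6% of all genes tested. Plin2, a lipid droplet coat protein, had 141 CPM in CD26+ and 42.2 CPM in CD26- NFs of gel 1, 258 and 103 in gel 4 and 309.6 and 105 in gel 5 (log2 fold change 1.39 ± 0.14, adjusted p = 0.00121). Epas1, which encodes the HIF subunit best known from endothelium, had 59.4 CPM in CD26+ and 37.4 CPM in CD26- NFs of gel 1, 107 and 44.1 in gel 4 and 85 and 37 in gel 5 (log2 fold change 0.90 ± 0.15, adjusted p = 0.0117). CD26+ values of both genes lay above the CD26- value of the same gel in all 3 gels. The 4 endothelial markers moved the same way, with sums of 4.91 and 1.12 CPM in gel 1, 22.9 and 9.88 in gel 4 and 12.9 and 8.0 in gel 5 (CD26+, then CD26-). Summed leukocyte and epithelial markers were also higher in CD26+ NFs of all 3 gels, and summed fibroblast markers were lower. The part of these lists in the subset differences was not tested. Fam162a and Egln2 were the other genes higher in CD26+ NFs, and Pck2 was the lower one. In tumor cells, 9 of 31 tested genes of this list rose in co-culture and 2 fell, beside 10.8% and 11.5% of all genes tested, with Epas1 at 25.5 and 21.9 CPM alone and 66.1 and 42.2 CPM in co-culture (1.14 ± 0.13, adjusted p = 0.000826).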

How the data were processed

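Bulk RNA sequencing libraries of sorted NFs and tumor cells (10 in all) were analyzed. The authors made stranded poly(A) libraries and deposited raw read counts per gene, without normalization, as a table of all libraries. The submitters' processing notes name HISAT2 2.2.1 and GRCm38 without roles, and which program counted reads, whether it used strand and on which annotation was not given in the sources used here. GENCODE M21 (GRCm38) held the IDs of 99.5% of the 55486 genes and gave the same position for 99.4% of those held, all 38 members included. A line without an ID held 0 counts and was left out. The members, roles and lists were chosen with earlier results of these data known. A further deleted gene of the tumor cells is not reported here.

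After filterByExpr and TMM scaling, genes were tested by the quasi-likelihood method of edgeR 4.0.16 (R 4.3.3), and p-values were adjusted over all genes tested by the Benjamini-Hochberg method, with a threshold of 0.05. The comparisons within NFs used the 6 NF libraries, with subset and culture as terms or as 4 groups. Terms for line and culture were used in tumor libraries, while NFs and tumor cells alone were fitted over 4 libraries, shared gels over 6, and the difference of the culture response over all 10. The script was tested on simulated data with known changes. Count ratios of scarce genes have exact conditional binomial 95% intervals, and a count of 0 was given a floor of 3 counts, both covering counting error only, since reads were not counted as molecules. The 14142334 to 18408940 counts per library leave members under 1 CPM with few counts.

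Gels number the replicates, and libraries of 1 gel share it per the labels. Their deviations from group means correlated weakly (r of 0.0875 between CD26- and CD26+ NFs, 0.0895 between CD26- NFs and tumor cells and 0.0611 between CD26+ NFs and tumor cells over 17048 genes), and a fit with gel as a block was run as an alternative. Others were RLE scaling, library totals, other filters, DESeq2 1.42.0 (the tool of the study, with its added limit of 2 on the absolute log2 fold change as a separate alternative), and leaving out each library. Values per library were given for 13 landmark members whatever their p-value and for members at the ends of each comparison. Promoters came from RefSeq (GRCm38.p6), without Ndrg1 and Slc2a3. Figures were drawn with Matplotlib 3.10.9.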

Additional observations from a re-analysis of the deposited data

Results flagged for a closer look

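The response to co-culture differed between NFs and tumor cells, by the test of the difference itself (edgeR, 10 libraries), for 30 of the 38 genes. Over all 17048 genes tested the share was 30.8%, with 16.9% higher and 13.8% lower in NFs. All values are log2 differences, NF response minus tumor response. The response was higher in NFs for the glucose transporter Slc2a1 (2.79) and the lactate exporter Slc16a3 (3.41, but -0.87 without 10-SJK-221 cells alone and -0.86 without co-cultured 10-SJK-221 cells). Among glycolytic enzymes the differences were Hk1 2.08, Gpi1 2.40, Pfkp 3.33, Aldoa 1.56, Aldoc 6.80, Pfkfb3 1.34, Pfkfb4 2.56, Tpi1 1.57, Gapdh 1.61, Pgk1 2.30, Pgam1 1.68, Eno1 0.99, Eno2 1.5, Pkm 1.03 and Ldha 0.93. Among hypoxia genes they were Egln1 1.05, Egln3 5.27, Vegfa 2.91, Adm 1.68, Car9 7.11, Bnip3 2.18, P4ha1 1.41, Ndrg1 2.29, Ankrd37 3.75 and Mxi1 2.45.

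Hk2 (-1.15), Hif1a (-0.94) and Slc16a1 (-0.84) had the lower response in NFs. In NFs they fell, while in tumor cells Hk2 changed by 0.22 ± 0.12, Hif1a by 0.07 ± 0.11 and Slc16a1 by 0.24 ± 0.12, none of them past the threshold. NFs alone came from 1 gel and tumor cells alone from a gel per line, so that the gel and the culture cannot be told apart in these differences. No group held more than 2 libraries of 1 kind, so no library could be tested for standing apart from its group.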

How the results depend on the processing

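For single members under all alternatives, 3714 values kept direction and side of the threshold, 301 kept direction but lost the threshold, 78 gained it, 176 changed sign without passing it in either case and 2 that had passed it turned. Both of these last were Slc16a3 in the difference of the culture response between NFs and tumor cells, at -0.87 without 10-SJK-221 cells alone and -0.86 without co-cultured 10-SJK-221 cells, where its tumor response rests on the 0 and 4 counts of 13-MCB-17 cells. Leaving out 1 library gave it -0.87 to 3.57. Scaling by library totals moved the median of all genes from 0.00 to 0.16 between the subsets, from 0.03 to -0.18 in shared gels and from 0.05 to -0.11 with both cell types alone. Between subsets it gave 3 members higher (Slc16a1, Higd1a, Ankrd37; 9.21% of all genes passed) and a median of 0.12. Gel as a replicate block gave 2 calls between subsets (8.87% of all genes) and DESeq2 3 (10.5%), and the block changed no other call (culture in NFs cannot be fitted with it, since gel 1 alone held NFs alone). Co-cultured tumor cells gave 3 calls with RLE scaling (20.1% of all genes), 17 with no filter beyond 1 count (15.8%), 4 with a filter of 1 CPM (22.5%), 2 with DESeq2 (11.6%) and 0 without the line term (no replicate block), where 0 of all genes passed. The lines gave 5 calls with RLE scaling (12%), 20 with no filter beyond 1 count (12.1%) and 3 in the fit of 10 libraries (6.25%). Their difference in response gave 2 with DESeq2 (0.169%). The cause of these shifts was not tested.

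With the added limit of 2 on the log2 fold change, calls numbered 17 for co-culture in NFs (13.6% of all genes), 19 in CD26- (11.4%), 16 in CD26+ (13.3%), 0 in tumor cells (3.17%), 2 between lines (2.11%), 18 with both alone (27.6%), 6 in shared gels (24%) and 15 for the difference of responses (11.5%). Leaving out 1 library or gel gave 36 calls for co-culture in NFs in each case (32 to 42% of all genes), 33 to 34 within CD26- (18.4 to 21.1%) and CD26+ NFs (20.2 to 30.6%), 0 to 2 between subsets (0.118 to 9.11%), 0 for the interaction (0 to 0.187%), 0 to 8 in tumor cells (2.39 to 5.99%), 5 to 8 between lines (2.37 to 3.09%), 18 to 30 with both alone (31.4 to 37.9%), 24 to 27 in shared gels (45.9 to 53%) and 22 to 32 for the difference of responses (17.6 to 31.2%). Without gel 5, 17 genes in all passed between subsets, so that 0 members there says nothing about them. The lowest count for the difference of responses, 22, came without 10-SJK-221 cells alone. Medians ranged from 1.78 to 2.04 for co-culture in NFs (1.91 to 2.06 in CD26-, 1.64 to 2.03 in CD26+), -0.06 to 0.06 between subsets, -0.23 to 0.092 for the interaction, -0.02 to 0.60 in tumor cells, -0.18 to 0.25 between lines, -1.75 to -1.35 with both alone, -0.37 to -0.09 in shared gels and 1.24 to 1.89 for the difference of responses. Where this left a group with 1 library, it was assumed to vary like the others.

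These data have 1 gel of NFs alone and 1 gel per line and condition, so nothing here separates a gel from its culture. Depth limits Car9 and Aldoc in NFs alone, and Slc2a3 and Slc16a3 in tumor cells, to few counts. Exons of Ankrd37, Higd1a, Bnip3 and Pkm overlap other genes over 26.4%, 22.5%, 22.3% and 15.3% of their length, and counting by strand was not given.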

Other observations

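The further list of 46 pathway genes held other differences. Hif3a, a HIF subunit known as a HIF target, had 0.0621 and 0 CPM in NFs alone and 0.424 to 1.48 CPM in NFs beside tumor cells, and tumor cells went from 0.0543 and 0.0636 CPM alone to 3.96 and 0.741 CPM in co-culture. These are low levels in all 10 libraries. Fam162a, a mitochondrial protein known as a HIF target, had 39.2 and 64.4 CPM in CD26- and CD26+ NFs alone, against 303 (gel 4) and 274 CPM (gel 5) in CD26- NFs beside tumor cells and 509 (gel 4) and 705 CPM (gel 5) in CD26+ NFs, so that CD26+ NFs were above CD26- NFs in each gel (log2 fold change 0.81 ± 0.16, adjusted p = 0.0202). Slc16a7, a monocarboxylate transporter of high affinity, had 4.66 and 3.37 CPM in NFs alone, 0.364 to 0.642 CPM in co-cultured NFs and 0 counts in all tumor libraries.

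Ldhb had 0 counts in both libraries of tumor cells alone, against 0.566 and 0.057 CPM in co-culture. Stc2 had 0 counts in all 4 tumor libraries. In co-cultured tumor cells Insig2, which holds back sterol synthesis, fell by 0.92 on the log2 scale (adjusted p = 0.000547), while in co-cultured NFs it rose by 1.38 (adjusted p = 5.79e-05). Bhlhe40, a repressor of the circadian clock, fell in co-cultured NFs (-0.42 ± 0.13) and had 539 and 549.6 CPM in tumor cells alone, against 858 and 740.4 CPM in co-culture (0.52 ± 0.12, adjusted p = 0.0171).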
